A study of Rattus norvegicus with 10 samples.

Results

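Lysosomal cathepsins, their cystatin inhibitors and the lysosomal membrane protein Lamp1 were read in rat left ventricle after transfer of the gene for GATA-4, a DNA-binding transcription factor that cardiac muscle cells use. The set held 10 genes, Ctsa, Ctsb, Ctsc, Ctsd, Ctsh, Ctsk, Ctsz, Cst3, Cstb and Lamp1, chosen by symbol. They are 10 of 14217 genes on the array, and 13 of its 31042 probe sets carry one of them as their single annotated gene. Of these 13, 11 were bright enough to be tested, at least 1 for each gene, and the other 2 were dim Lamp1 probe sets. The RNA on all 10 arrays was from the left ventricle of Sprague-Dawley males of 250 to 300 g, taken 3 days after gene transfer. On 5 arrays the animals had received the GATA-4 gene and on 5 the LacZ gene of bacterial beta-galactosidase, so both groups had undergone gene transfer and no untouched ventricle was included. The labels name no animal for a sample, and vehicle, promoter and site of transfer were not stated there. The p-values measure the spread between these samples, which may be technical.

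Cathepsins are proteases of lysosomes, the acid compartments in which cells break down proteins taken up from outside or delivered by autophagy. Most are cysteine proteases, Ctsd is an aspartic protease and Ctsa a serine carboxypeptidase. They are made as inactive precursors, sorted through the mannose 6-phosphate receptor and activated at low pH. Cystatins bind and block cysteine cathepsins that have left the lysosome, Cst3 mainly outside cells and Cstb in the cytosol. In heart tissue cathepsins are found in muscle cells, where they serve turnover of proteins and mitochondria, and at high levels in macrophages. Many lysosomal genes carry a promoter element, the CLEAR element, built on the letters CACGTG and bound by the transcription factor TFEB and its relatives.

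Because that element is the best known feature that lysosomal promoters share, the 250 bases upstream of each start were searched on both strands in RefSeq's promoters of rat assembly GRCr8. The table held 9 of the 10 members, all but Ctsb, among 33469 promoters. The letters CACGTG stood in 3 of the 9, Ctsd, Cstb and Lamp1, and in 5.59% of all promoters. With a leading T, as TCACGTG, which holds the shorter motif, it stood in the same 3 promoters and in 2.79% of all. A longer palindrome, with 2 set letters on each side of CACGTG, was also searched. It stood in 0 of the 9 members and in 0.203% of all promoters. The 3 promoters thus held CACGTG and TCACGTG but no exact copy of the palindrome, and near matches to it were not counted. Lamp1 held CACGTG 5 times, starting 183, 167, 150, 65 and 38 bases upstream of the start, and was the 1 promoter in the table with at least 5. Ctsd held it 2 times, 157 and 10 bases upstream, and Cstb 1 time, 22 bases upstream. Of the motifs that GATA factors bind, only TGATAA and AGATAA were searched, and the forms ending in G, TGATAG and AGATAG, were not counted. TGATAA stood in 1 member, Ctsz, in reverse orientation 211 bases upstream, and in 7.97% of all promoters. AGATAA stood in none of the 9 and in 10.3% of all. The Ctsz promoter also held CTATCA, the reverse complement of TGATAG, upstream of its TGATAA match. The letters GAGGAAGT, a site type of the myeloid factor PU.1, stood in Ctsc and in 2.04% of all promoters. A match is a description of the letters, not a site shown to be used. The promoters that hold CACGTG, and that of Ctsz, are shown 5′ to 3′ with the matched letters in capitals (CACGTG, and in Ctsz the reverse complement of TGATAA). Their windows are chr1:206968822-206969071 for Ctsd, chr20:10247200-10247449 for Cstb, chr16:83075064-83075313 for Lamp1 and chr3:183653848-183654097 for Ctsz, all on the minus strand.
Ctsd: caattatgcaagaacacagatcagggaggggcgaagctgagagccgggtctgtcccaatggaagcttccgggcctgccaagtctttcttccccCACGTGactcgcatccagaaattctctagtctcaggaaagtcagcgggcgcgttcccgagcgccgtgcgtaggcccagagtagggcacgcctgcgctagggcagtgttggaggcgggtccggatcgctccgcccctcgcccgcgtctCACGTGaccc
Cstb: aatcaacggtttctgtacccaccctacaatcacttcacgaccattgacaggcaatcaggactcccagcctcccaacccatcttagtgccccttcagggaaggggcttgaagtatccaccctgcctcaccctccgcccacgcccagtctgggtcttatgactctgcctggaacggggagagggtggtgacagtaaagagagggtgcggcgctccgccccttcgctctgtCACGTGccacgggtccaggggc
Lamp1: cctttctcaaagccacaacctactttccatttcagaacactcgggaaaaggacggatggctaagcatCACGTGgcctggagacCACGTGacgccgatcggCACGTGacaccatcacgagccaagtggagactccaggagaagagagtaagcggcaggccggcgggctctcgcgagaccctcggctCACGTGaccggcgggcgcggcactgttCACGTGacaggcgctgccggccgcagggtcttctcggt
Ctsz: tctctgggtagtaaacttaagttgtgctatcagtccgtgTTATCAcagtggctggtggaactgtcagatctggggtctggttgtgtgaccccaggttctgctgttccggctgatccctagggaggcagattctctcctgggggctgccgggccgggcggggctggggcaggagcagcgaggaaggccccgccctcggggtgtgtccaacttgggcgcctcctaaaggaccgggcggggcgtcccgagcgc

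Values are log2 signals after quantile normalization, and a difference is GATA-4 minus LacZ on that scale. A probe set is said to rise or fall where limma's adjusted p, over the 18625 probe sets tested, was under 0.05. Of the cathepsin genes 3 rose with GATA-4: Ctsz by 0.78, Ctsa by 0.35 and Ctsb by 0.24, that is 1.72-fold, 1.27-fold and 1.18-fold. The 3 risers among 11 member probe sets stand beside 5.30% of all probe sets tested that changed and 3.04% that rose, and no member fell, beside 2.27% of all. The same 3 were the members whose groups did not overlap, where 8.30% of all probe sets tested had groups apart, 3.70% of all with GATA-4 the higher. Differences were positive for 9 of the 11, against 46.2% of all, and 5 had an unadjusted p under 0.05, against 22%. Over the 10 genes, each read by its brightest probe set, the median difference was 0.24, against -0.017 over all 10688 genes tested. With median centring and in the signals as deposited the member median was 0.13, beside -0.056 and -0.054 over all genes tested there.

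The arrays themselves differed in brightness. As deposited, GATA-4 array 1, the dim array, had a 2%-trimmed mean signal of 142.3, whereas the other 9 arrays had 249.2 to 328.7. The sample numbers of the last GATA-4 arrays, 4 and 5, do not follow on from the other 8, and no batch is labelled. Gata4, read as a check of the labels, rose by 0.79 (SE 0.09, limma adjusted p = 0.00131) and its groups did not overlap. The other Gata4 probe set lay below the filter and its groups overlapped, at 4.41 to 6.21 with GATA-4 and 3.19 to 5.63 with LacZ (exact two-sided permutation p = 0.19). All 12 cardiomyocyte markers listed stood at or above the 99.1th percentile of mean signal. Without the dim array 6 of the 11 member probe sets rose, beside 15.3% of all probe sets tested that then changed (1464 higher, 1385 lower). Without LacZ array 3 only Ctsz rose, beside 0.934% of all that changed in either direction (142 higher, 32 lower). Ctsz was also the single member to rise with median centring, beside 3.88% of all that changed (322 higher, 401 lower). It was again the single one in limma without its intensity trend, beside 2.89% (358 higher, 181 lower).

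**Figure D1:**
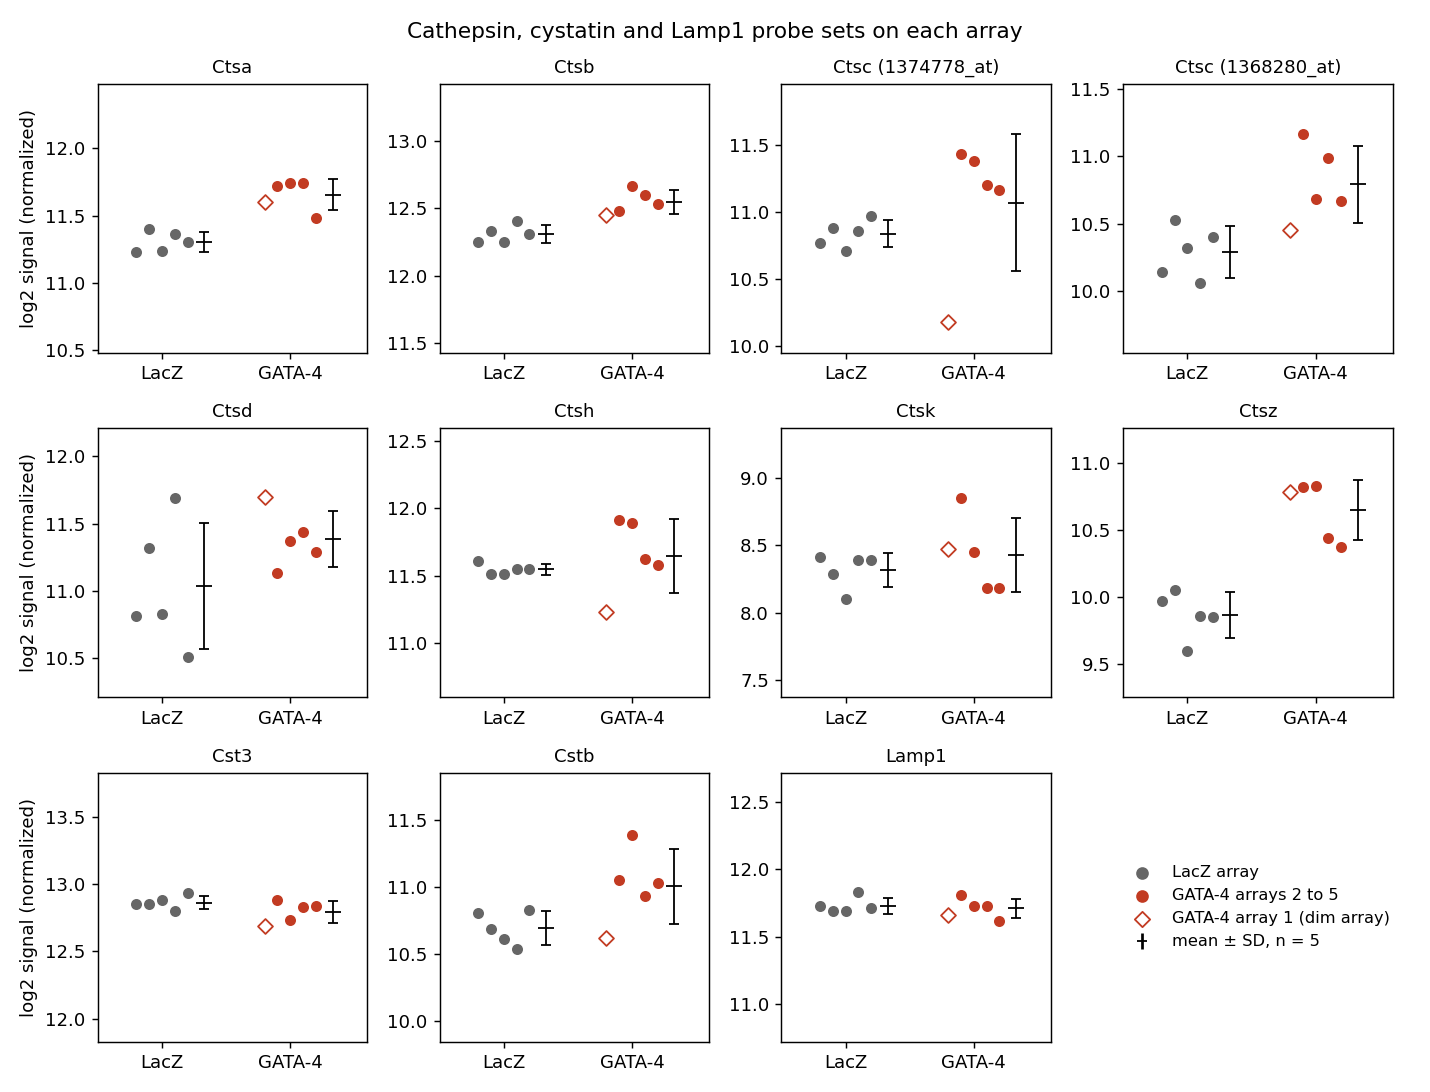
Normalized log2 signal of the 11 tested member probe sets on each array, with every vertical axis spanning the same 2 log2 units; points are arrays, the open diamond is the dim GATA-4 array 1, and the bars are mean ± SD (n = 5). Ctsa, Ctsb and Ctsz lie apart between the groups, and the diamond lies above all LacZ arrays for these 3, Ctsd and Ctsk, and below all of them for Ctsh, Cst3, Lamp1 and the brighter Ctsc probe set.

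Ctsz encodes cathepsin Z, also called cathepsin X, a cysteine protease that removes amino acids from the carboxyl end of proteins and is known from macrophages. It read 9.97, 10.05, 9.60, 9.86 and 9.85 on LacZ arrays 1 to 5, and 10.78, 10.82, 10.83, 10.44 and 10.37 on GATA-4 arrays 1 to 5. Every GATA-4 array lay above every LacZ array, and the dim array lay with the higher GATA-4 arrays. The mean of the LacZ arrays was 9.86 ± 0.17 and that of the GATA-4 arrays 10.65 ± 0.22 (SD, n = 5). The rise of 0.78 (SE 0.12; 95% interval 0.53 to 1.04, or 1.44-fold to 2.05-fold) had an adjusted p of 0.00661 in limma. With each array left out in turn it passed every time, in all 10 fits, with adjusted p-values of 0.00222 to 0.024, and in the signals as deposited it did not (0.70, adjusted p = 0.993). GATA-4 arrays 4 and 5 were the lower GATA-4 arrays for this gene, and without both the difference was 0.95 (adjusted p = 0.0121).

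Ctsb encodes cathepsin B, an abundant lysosomal cysteine protease. Its signals were 12.25, 12.33, 12.25, 12.41 and 12.31 with LacZ and 12.45, 12.48, 12.67, 12.60 and 12.53 with GATA-4. The groups were apart by a narrow gap between LacZ array 4 and the dim GATA-4 array. Its rise of 0.24 (SE 0.06; 95% interval 0.12 to 0.36) had a limma adjusted p of 0.0278, and the means were 12.55 ± 0.09 and 12.31 ± 0.06 (SD, n = 5). The interval lay wholly below that of Ctsz, although the difference between both genes was not tested. The call was lost without LacZ array 1, 3 or 5 or without GATA-4 array 3, 4 or 5, with adjusted p-values up to 0.0928, and with median centring (0.15, adjusted p = 0.293).

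Ctsc encodes cathepsin C, or dipeptidyl peptidase I, which activates the granule serine proteases of neutrophils and cytotoxic lymphocytes. It was read by a pair of probe sets that disagreed in size. The dimmer one read 10.14, 10.53, 10.32, 10.06 and 10.40 with LacZ and 10.45, 11.17, 10.68, 10.99 and 10.67 with GATA-4. Here 4 GATA-4 arrays lay above all LacZ arrays and the dim array lay among them. The difference of 0.50 (SE 0.14; 95% interval 0.21 to 0.79) had a limma adjusted p of 0.0508, just short of the threshold. On the brighter one the LacZ arrays read 10.77, 10.88, 10.71, 10.86 and 10.97 and the GATA-4 arrays 10.18, 11.43, 11.38, 11.20 and 11.16. GATA-4 arrays 2 to 5 lay above all LacZ arrays and the dim array below all of them, so the difference of 0.23 (95% interval -0.18 to 0.65) did not pass (adjusted p = 0.511). Without the dim array both Ctsc probe sets rose, by 0.58 and 0.45, with limma adjusted p-values of 0.00741 and 0.00284.

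Ctsh encodes cathepsin H, a cysteine protease that trims the amino end of proteins. The LacZ arrays lay close together at 11.61, 11.51, 11.51, 11.55 and 11.55, while the GATA-4 arrays read 11.23, 11.91, 11.89, 11.62 and 11.58. GATA-4 arrays 2 and 3 stood well above all LacZ arrays, array 4 by 0.01, and the dim array below them. Its difference was 0.10 (SE 0.11; 95% interval -0.14 to 0.33; limma adjusted p = 0.634), and it was -0.02 both in the signals as deposited and with median centring. Ctsk encodes cathepsin K, the collagen-degrading protease of osteoclasts. It read 8.41, 8.29, 8.10, 8.39 and 8.39 with LacZ and 8.47, 8.85, 8.45, 8.18 and 8.18 with GATA-4, and the groups overlapped. The Ctsk difference was 0.11 (95% interval -0.18 to 0.40; adjusted p = 0.68 in limma), so that changes larger than about 1.32-fold upward lie outside its interval.

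Ctsd encodes cathepsin D, the main aspartic protease of lysosomes, and had the widest spread of the tested members among LacZ arrays. These read 10.81, 11.32, 10.83, 11.69 and 10.51, a SD of 0.47. The GATA-4 arrays read 11.70, 11.13, 11.37, 11.44 and 11.29, with the dim array at the top. A single GATA-4 array, the dim one, lay above all LacZ arrays, and its margin over LacZ array 4 was 0.01. The difference of 0.36 (SE 0.19; 95% interval -0.05 to 0.76) was about as large as that of Ctsa but had a limma adjusted p of 0.286, and of 0.0884 without LacZ array 4.

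Ctsa encodes cathepsin A, also called protective protein, a serine carboxypeptidase that holds lysosomal beta-galactosidase and neuraminidase in a stable complex. It read 11.23, 11.40, 11.24, 11.36 and 11.30 on the LacZ arrays and 11.60, 11.72, 11.74, 11.74 and 11.48 on the GATA-4 arrays. All GATA-4 arrays, the dim array among them, lay above all LacZ arrays. The means were 11.66 ± 0.11 and 11.31 ± 0.07 (SD, n = 5), and the rise of 0.35 (SE 0.07; 95% interval 0.20 to 0.50) had a limma adjusted p of 0.0168. The call was lost without LacZ array 3 (adjusted p = 0.0627) and with median centring (0.22, adjusted p = 0.159).

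**Figure D2:**
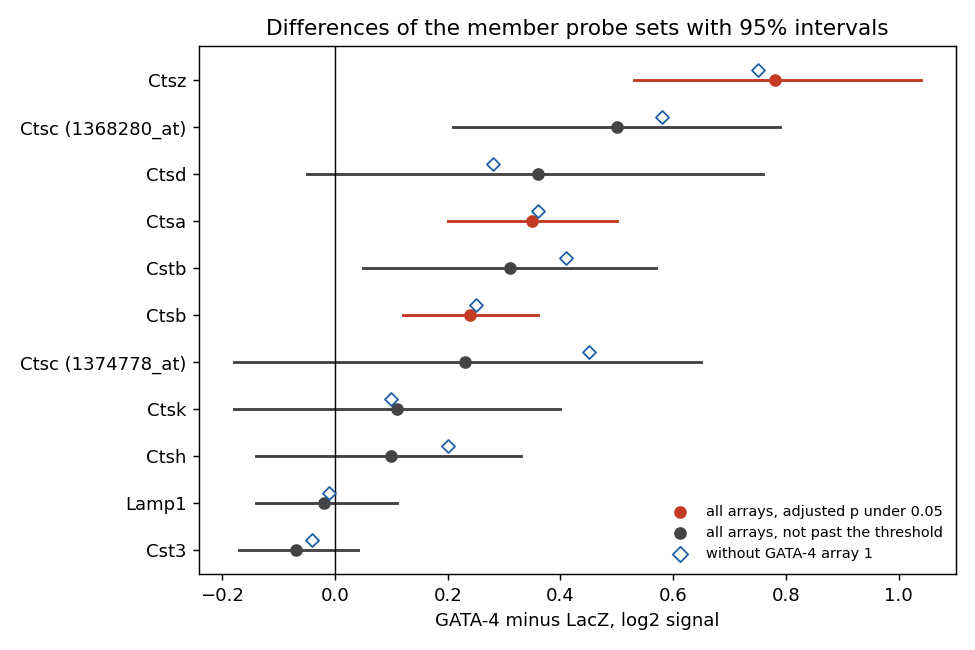
Difference between the GATA-4 and LacZ means in log2 signal for each tested member probe set, with limma's 95% interval (filled points and lines, all 10 arrays) and the same difference without the dim array (open diamonds). Ctsz, Ctsa and Ctsb, in red, passed the threshold, and leaving out the dim array moves the Ctsc probe sets, Cstb and Ctsh upward and Ctsd downward.

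Neither cystatin gene passed. Cstb encodes stefin B, or cystatin B, the inhibitor of cathepsins in the cytosol. It read 10.81, 10.69, 10.61, 10.54 and 10.83 with LacZ and 10.62, 11.05, 11.39, 10.93 and 11.03 with GATA-4. GATA-4 arrays 2 to 5 lay above all LacZ arrays, with the dim array inside their range. The difference was 0.31 (SE 0.12; 95% interval 0.05 to 0.57; limma adjusted p = 0.155), and without the dim array Cstb rose by 0.41 (adjusted p = 0.0134). Cst3 encodes cystatin C, the secreted inhibitor found in body fluids. Its signals were 12.85, 12.85, 12.88, 12.80 and 12.93 with LacZ and 12.69, 12.88, 12.73, 12.83 and 12.84 with GATA-4. The groups overlapped, and the difference of -0.07 (SE 0.05; 95% interval -0.17 to 0.04; limma adjusted p = 0.438) leaves room for a fall to 0.889-fold and a rise to 1.03-fold. Among the members Cst3 and Lamp1 were those with differences below 0.

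Lamp1 encodes a heavily glycosylated protein that lines the lysosomal membrane and is widely used as a marker of lysosomes. Its bright probe set read 11.73, 11.69, 11.69, 11.83 and 11.71 with LacZ and 11.66, 11.81, 11.73, 11.73 and 11.62 with GATA-4. The groups overlapped throughout, and the difference was -0.02 (SE 0.06; 95% interval -0.14 to 0.11, or 0.907-fold to 1.08-fold; limma adjusted p = 0.883). That interval lay wholly below those of Ctsz, Ctsa and Ctsb. The other 2 Lamp1 probe sets stood at the 27.1th and 11.7th percentiles of mean signal, below the filter, and were not fitted. They averaged 4.00 ± 0.61 against 4.01 ± 0.51 and 2.65 ± 0.84 against 2.23 ± 1.84 (SD, n = 5), with exact two-sided permutation p-values of 0.976 and 0.651.

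Most further cathepsins and cystatins were too dim on these arrays to be tested. Of 11 other cathepsin genes with a probe set, 5 passed the filter, and limma called 0 of them at an adjusted p under 0.05. Ctss, cathepsin S of antigen-presenting cells, had a difference of 0.39 (SE 0.20; 95% interval -0.04 to 0.83; limma adjusted p = 0.272) with a GATA-4 range of 10.54 to 11.91 and a LacZ range of 10.81 to 11.14. Ctsl, cathepsin L of most cells, differed by 0.14 (adjusted p = 0.414) on its brighter probe set and by 0.06 (adjusted p = 0.762) on the other. Ctso, Ctse and Ctsf had differences of 0.15, 0.12 and -0.25, with limma adjusted p-values of 0.678, 0.697 and 0.218. Without the dim array 2 of the 5 rose, Ctss by 0.61 (adjusted p = 0.00393) and Ctsl by 0.24 (adjusted p = 0.0113). Of 13 other cystatin-family genes with a probe set, 12 did not pass the filter. The remaining one, Cst7, the cystatin F of leukocytes, differed by 0.33 (SE 0.15; 95% interval 0.02 to 0.65; limma adjusted p = 0.201).

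The rest of the lysosomal machinery was described by lists of genes, each gene read by its brightest probe set, beside the 6.37% of 10688 genes that changed, 3.71% that rose and 2.66% that fell. Of 38 other lysosomal hydrolases and activators 3 rose, 0 fell and 35 did not pass, and the median difference was 0.11. Ifi30, a thiol reductase that unfolds antigens in lysosomes, rose by 0.51 (SE 0.07, limma adjusted p = 0.00597), from 10.79 ± 0.06 to 11.30 ± 0.12 (SD, n = 5). Grn, which encodes progranulin, rose by 0.47 (adjusted p = 0.0188), and Lgmn, the asparagine-specific protease legumain that processes cathepsins, rose by 0.37 (adjusted p = 0.0243). Grn's call was lost without LacZ array 3 (adjusted p = 0.0627), and that of Lgmn without LacZ array 1, 3, 4 or 5 or GATA-4 array 3 or 4 (up to 0.0774). With median centring and in the signals as deposited none of the 38 passed, and their medians were both 0.07. Without the dim array 6 rose and 1 fell, beside 9.97% of all genes that then rose and 8.9% that fell.

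Of 15 tested genes of lysosomal membrane proteins other than Lamp1, 4 rose and 0 fell, and their median difference was 0.13. Cd68, a lysosomal glycoprotein of macrophages, rose by 0.69 (SE 0.13, limma adjusted p = 0.014), Glmp, a partner of a lysosomal transporter, by 0.54 (adjusted p = 0.02) and Laptm5, a lysosomal protein of blood cells, by 0.50 (adjusted p = 0.0216). The fourth was Sidt2, named after its values were seen, at 0.43 (adjusted p = 0.0326), whose call was lost in 7 of 10 fits without an array, all but those without GATA-4 array 1, 2 or 3. The calls of Glmp and Laptm5 were lost without LacZ array 1, 3 or 5 or GATA-4 array 3, with adjusted p-values up to 0.0688 and 0.0728. Cd68 and Laptm5 also stand in the list of macrophage markers. A further Laptm5 probe set differed by 0.35 and did not pass (adjusted p = 0.143). With median centring 1 of the 15 rose, beside 2.06% of all genes.

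None of 19 subunits and accessory proteins of the vacuolar proton ATPase, the pump that acidifies lysosomes, rose or fell, with a median of 0.10. The smallest p belonged to Atp6v1g1, at 0.30 (limma adjusted p = 0.0745), and without the dim array 4 rose and 1 fell, where 9.97% of all genes rose and 8.9% fell. Of 23 genes of sorting to lysosomes none passed, with a median of 0.07, and Igf2r, the large mannose 6-phosphate receptor, had differences of 0.37 and 0.36 on its probe sets (adjusted p-values 0.0778 and 0.14 in limma). Among 22 genes of the TFEB family of transcription factors, their nutrient-sensing regulators and autophagy, none rose and Rragd fell, with a median of -0.07. Rragd encodes a Rag GTPase that brings nutrient signals to the kinase mTOR at the lysosome surface. It read 8.25 to 8.56 with GATA-4 and 8.84 to 9.17 with LacZ, a fall of 0.70 in log2 signal that was lost in none of the 10 fits without an array (limma adjusted p = 0.0062 with all arrays). Without the dim array 5 of these 22 genes fell and 1 rose, to be read against the same 8.9% and 9.97%.

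**Figure D3:**
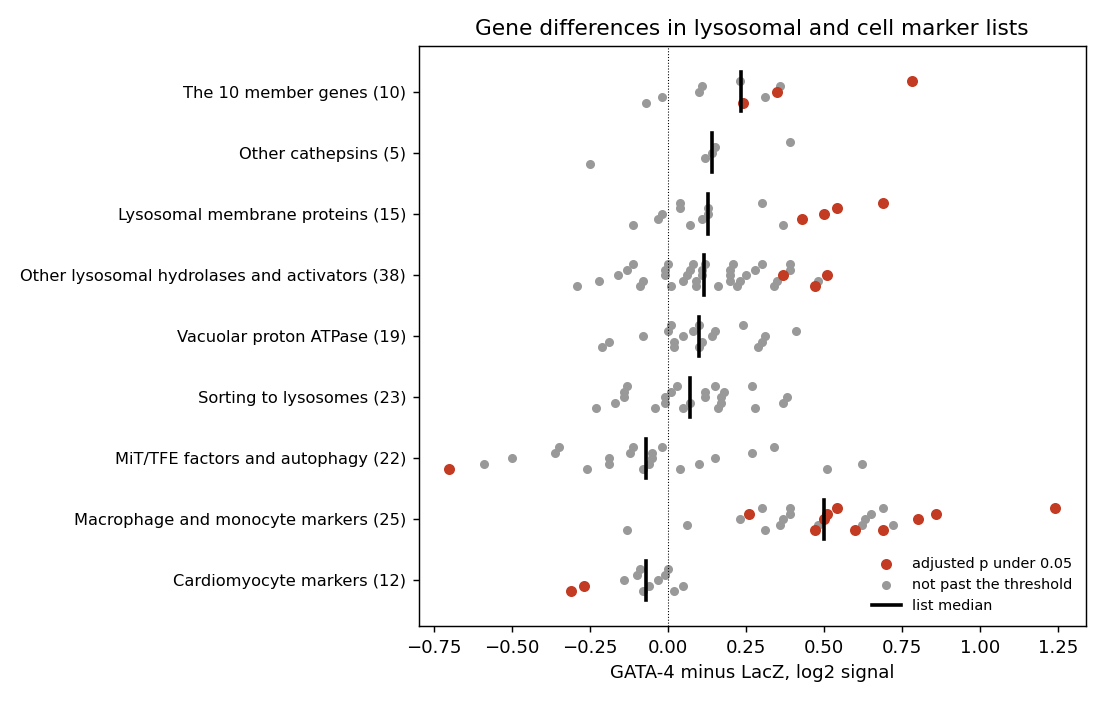
Difference between GATA-4 and LacZ means in log2 signal for every tested gene of the 10 members, 6 lists of other lysosomal genes and 2 lists of cell type markers; red points passed the threshold and the black bars are medians. The member median is 0.24, those of the 6 other lysosomal lists are -0.07 to 0.14 and that of macrophage markers is 0.50; with median centring the members' median is 0.13, near the 0.12 of other cathepsins and 0.11 of membrane proteins, and the order was not tested.

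Markers of macrophages and monocytes shared part of the pattern of the members' mean over the arrays. All 25 such genes were tested, of which 10 rose and 0 fell, and the median difference was 0.50, where 3.71% of all genes rose. The count moved with the fit: 20 rose without the dim array (9.97% of all genes), 3 without LacZ array 3 (0.947%), 4 with median centring (2.06%) and 0 in the signals as deposited (0.0655%). It was 5 without LacZ array 1 or GATA-4 array 3, and 6 without LacZ array 4 or 5 or GATA-4 array 4. In these fits, in the same order, 273, 234, 284, 236 and 354 of all 18625 probe sets rose, against 566 in the reported fit. Tyrobp, an adaptor of myeloid receptors, rose by 1.24, Csf1r, the macrophage growth factor receptor, by 0.54 and Cd14, an endotoxin coreceptor, by 0.86, with limma adjusted p-values of 0.00074, 0.00819 and 0.0136. Without LacZ array 3 the call of Cd14 was lost (adjusted p = 0.0511). The dimmest of the 25 stood at the 48.1th percentile of mean signal, where the filter for testing was the 40th. Their mean deviation, the average over genes of an array's log2 distance from the gene's mean over 10 arrays, spanned -0.44 to -0.12 over LacZ arrays, was -0.12 for the dim array and spanned 0.21 to 0.46 over the remaining GATA-4 arrays. For the 10 members it was -0.13, -0.07, -0.23, -0.04 and -0.13 on the LacZ arrays and -0.03, 0.24, 0.25, 0.10 and 0.04 on the GATA-4 arrays. In both lists LacZ array 3 was lowest, GATA-4 arrays 2 and 3 were highest and the dim array lay at or just above the top of the LacZ range. LacZ array 4 differed, as the highest LacZ array for the members (-0.04) and the lowest but for array 3 for macrophage markers (-0.29). LacZ array 3 was also lowest, and GATA-4 arrays 2 and 3 highest, for other lysosomal hydrolases and for lysosomal membrane proteins. These traits were thus seen in those lists too, and the list of membrane proteins shares Cd68 and Laptm5 with the macrophage markers. The dim array was the lowest GATA-4 array for the members and macrophage markers, and also for the vacuolar proton ATPase (-0.05). For hydrolases and membrane proteins GATA-4 array 5 was lowest, at -0.02 and -0.01. The part of macrophages in the members' differences was not tested, and in bulk tissue more cells of a type and more RNA per cell cannot be told apart. On the dim array 5 member probe sets lay above all LacZ arrays (Ctsz, Ctsa, Ctsb, Ctsd and Ctsk), 4 lay below all of them (Ctsh, Cst3, Lamp1 and the brighter of Ctsc) and 2 lay within their range (Cstb and the dimmer of Ctsc).

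**Figure D4:**
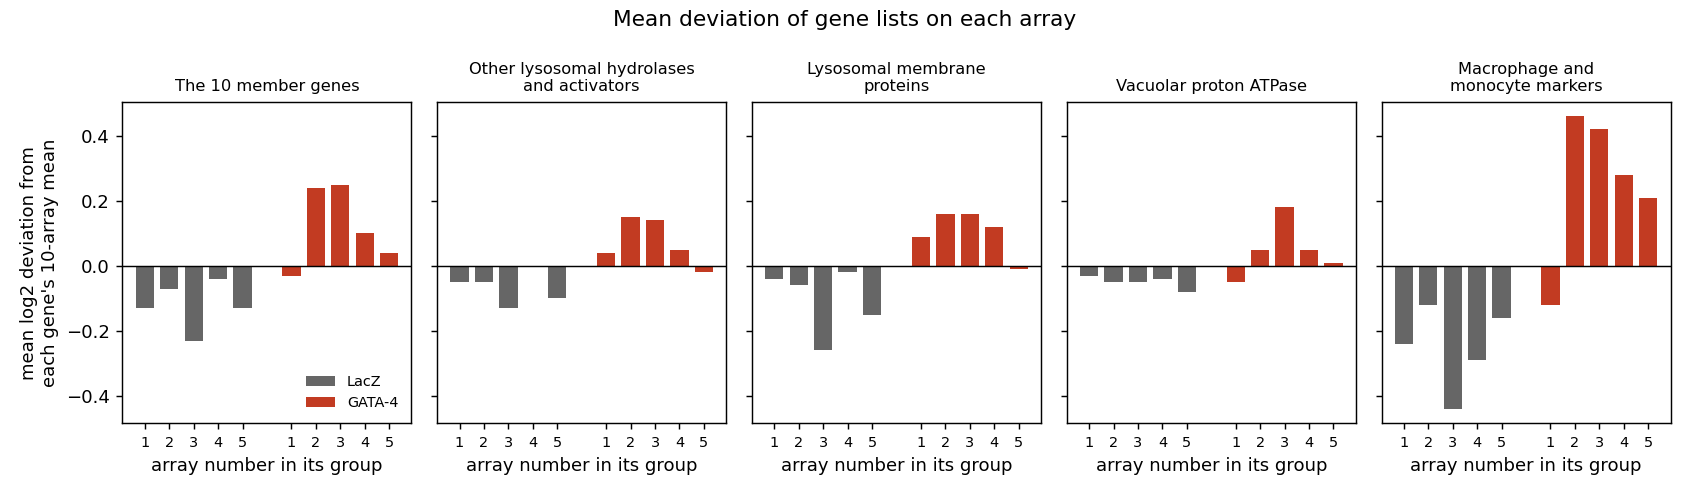
Mean log2 deviation of a list's genes from their 10-array means on each of the 5 LacZ (grey) and 5 GATA-4 (red) arrays, for the members, 3 other lysosomal lists and macrophage markers. Macrophage markers spread from -0.44 to 0.46 and the members from -0.23 to 0.25, and GATA-4 array 1 stands below the other GATA-4 arrays in both.

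Of 5 tested neutrophil markers 3 rose, where 3.71% of all genes did, and 4 more with a probe set lay below the filter. Lcn2 rose by 1.32, Il1r2 by 1.48 and Csf3r by 0.95, with limma adjusted p-values of 0.0104, 0.0278 and 0.026. The dim array had a mean deviation of -1.04 over the 5, which compares with 0.81 to 1.35 for its fellow GATA-4 arrays and -1.42 to 0.09 for LacZ. The calls of Il1r2 and Csf3r were lost in 7 and 8 of the 10 fits without an array, among them that without LacZ array 3 (adjusted p-values 0.0858 and 0.0817). Among 11 tested markers of T, NK and B cells none passed, and Gzma, a granule protease of the kind cathepsin C activates, differed by 0.72 (limma adjusted p = 0.118). Cardiomyocyte markers fell in 2 of 12, Casq2 by 0.31 and Ttn by 0.27 on the log2 scale (adjusted p-values 0.00786 and 0.00957), though a second Casq2 probe set, at -0.16, did not pass. Of 12 fibroblast markers Dpt fell by 0.31 (adjusted p = 0.0452), a call lost in 8 of 10 fits without an array (all but those without GATA-4 array 1 or 2), and its other probe set, at -0.19, did not pass. None of 10 endothelial or 10 smooth muscle and pericyte markers passed, with Emcn at -0.34 (adjusted p = 0.0586) and Tagln at 0.30 (adjusted p = 0.238) having the smallest p in limma. Without the dim array all 5 neutrophil markers and 3 T, NK and B cell markers rose, and 2 cardiomyocyte markers fell. In that fit 3 endothelial and 1 smooth muscle marker fell, and 2 fibroblast markers rose and 1 fell. Of all genes 9.97% then rose and 8.9% fell. With median centring 3 neutrophil markers rose and in the signals as deposited 0 did, where 2.06% and 0.0655% of all genes rose. The dim array stood above all others in mean deviation for endothelial markers, at 0.27, and for smooth muscle and pericyte markers, at 0.38.

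The genes whose pattern over the 10 arrays was most like the members' mean deviation were Tifa, an adaptor of innate immune signalling, Pnp, a purine salvage enzyme, Rpl3, a ribosomal protein, Myo1f, a myosin of leukocytes, and Akr1a1, an aldehyde reductase. Their Pearson correlations with it were 0.981, 0.98, 0.975, 0.974 and 0.974, and 0.934 to 0.954 after each group's mean had been taken out. These values describe 10 arrays that share the group difference and the dim array, and these 5 were the highest among the tested genes that are not members. Each member's own correlation with the mean of the other members ran from 0.882 for Ctsa down to 0.196 for Ctsd and -0.387 for Cst3. The mean is thus not a pattern that all members share. Tifa, Pnp and Rpl3 rose, by 0.61, 0.57 and 0.24 (limma adjusted p-values 0.0474, 0.0178 and 0.0236), while Myo1f at 0.47 and Akr1a1 at 0.10 did not pass. Pnp and Rpl3 each have 2 probe sets, and only the brightest tested one of each was read here. With each array left out in turn, Tifa passed in 1 of 10 fits (that without the dim array), Pnp in 9 (all but that without LacZ array 3) and Rpl3 in 6 (not without LacZ array 1, 3 or 5 or GATA-4 array 3), with adjusted p-values up to 0.132, 0.0627 and 0.0787. Rpl3 has near-identical copies in the genome, so its signal is uncertain as to source.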

How the data were processed

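The authors deposited probe set intensities on a linear scale, which the submitters' processing notes credit to GCOS, a program for Affymetrix arrays. How it summarized and scaled probes, and its version, are not given in those notes. Groups came from each sample's source label. Gene names are those of GEO's annotation of the platform, brought to RefSeq symbols where the gene ID matched (20758 of 20826 single-gene probe sets).

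Intensities were taken to log2, quantile normalized over 31042 probe sets without the 57 controls, and floored at a log2 of 0. Probe sets above the 40th percentile of mean signal (18625) were fitted with limma 3.58.1 in R 4.3.3, with an intensity trend and no covariate, and p-values were Benjamini-Hochberg adjusted over all of them. The script was tested on simulated data. The number of arrays limits the precision.

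The members and lists were chosen with earlier results of these data known. Named were the members, every tested cathepsin and cystatin, up to 3 passing genes of each other list by p (the one with the smallest p where none passed), and the 5 genes most like the members. Alternatives were other scalings, an added constant, another floor, other filters, limma without trend, robust or with array weights (statmod 1.5.0), and leaving out arrays.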

Additional observations from a re-analysis of the deposited data

Results flagged for a closer look

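Each group of 5 arrays was checked for a single array lying apart, by whether its gap to the nearest other array exceeded 0.71 of the group's range (Dixon's test). Of 94 groups checked, 7 had such an array, where chance gives about 4.7. The brighter Ctsc probe set read 10.18 on the dim GATA-4 array, where its group's remaining arrays read 11.16 to 11.43. The neutrophil marker Csf3r read 6.60 there, against 7.43 to 7.74. On GATA-4 array 2 Ctsf read 9.02, above the 8.51 to 8.62 of the others. Among LacZ arrays, Lamp1 read 11.83 on array 4 against 11.69 to 11.73. Rragd read 8.84 on LacZ array 2 against 9.09 to 9.17, Cd14 9.64 on LacZ array 5 against 9.15 to 9.28, and Tifa 7.87 on LacZ array 3 against 8.23 to 8.34. Without LacZ array 2 Rragd still fell, and without the dim array both Ctsc probe sets rose.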

How the results depend on the processing

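Of the 11 tested member probe sets 3 rose in the reported fit, and 0 did in the signals as deposited, 1 with median centring, 1 without the trend and 6 with array weights. Leaving out each array in turn gave 1 to 6. Over all probe sets the 988 calls became 9, 723, 539 and 2890 in the same settings, 619 without a filter and 201 without GATA-4 arrays 4 and 5, and 174 to 2849 with each array left out. Member groups that did not overlap numbered 3 in the reported fit, beside 8.30% of all probe sets tested. They numbered 0 in the signals as deposited, 1 with median centring and 3 to 6 with an array left out. The share over all probe sets was not computed for those settings, so these counts lack a background. Of all calls 57.3% were higher with GATA-4 (566 against 422), and 44.5% with median centring (322 against 401). The differences of Ctsz, Ctsa and Ctsb stayed positive in all 20 alternatives, at 0.69 to 0.95, 0.22 to 0.39 and 0.15 to 0.27. Ctsz missed the threshold in 1 of them, the signals as deposited (adjusted p = 0.993), Ctsa in 4 and Ctsb in 11. Ctsh turned to -0.02 in the signals as deposited and with median centring. Lamp1 ranged from -0.04 to 0.01 with an array left out, turning to 0.01 without LacZ array 4 or GATA-4 array 5, and also without GATA-4 arrays 4 and 5. Its difference moved further with scaling, to -0.12 in the signals as deposited and -0.13 with median centring, and did not pass in either. The cause of these changes was not tested. Averaging both Ctsc probe sets gave 0.37 in place of 0.23. No paired analysis was possible because no label ties a GATA-4 sample to a LacZ sample by number. Dim probe sets, such as the other 2 of Lamp1, lie where signal over background limits any reading.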
